A study of Rattus norvegicus with 18 samples.

Results

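Immediate early response genes need no newly made protein to be switched on, so their RNA can climb soon after a cell is disturbed, and many answer to serum, growth factors and mechanical load in heart cells. The 9 genes described here were listed under that class, outside its AP-1, EGR and KLF transcription factor families, and their membership was not tested. They are Ier2, Ier3, Ier5, Ier5l, Csrnp1, Trib1, Maff, Mafk and Myc, chosen by name from a table of 28909 genes, which writes them in capitals (IER2, IER3, IER5, IER5L, CSRNP1, TRIB1, MAFF, MAFK and MYC). They were picked with the values of this blebbistatin comparison already known, and Ier5l to be set against its paralogs. Their differences between the treatments are therefore described and not tested. All 9 passed the filter on low values, as did 15204 genes in all.

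Ventricular cardiomyocytes were prepared from wild-type (wt) Sprague-Dawley (SD) rats 1 day old. Faster-attaching cells were removed by plating for 90 min, and the rest were kept for 24 h on collagen and then moved to medium with 0.25% serum. Cells of both groups were treated for 0.5 h, either with the solvent DMSO or with blebbistatin, an inhibitor of myosin II motor activity (25 µM in the labels, 0.25 in the series' design text). There were 3 RNA libraries per group, and the labels do not say that they came from separate cell preparations, so spreads may be technical. The other 12 of the 18 samples, chromatin immunoprecipitates and inputs, are not analysed here.

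Values are CPM (a gene's reads scaled so that every library has the same total), and log2 fold changes are blebbistatin minus DMSO on log2(scaled CPM + 0.1). Depth, read from the smallest common step in the values, was 59.6 to 63.3 M reads a library. Between 1161 and 8854 reads then stand behind each member's value in a library, and counting error is at most 2.94%. One control, DMSO replicate 1, differed from all other libraries: it lay at -77.4 on component 1 (42% of the variance), the others between -3.04 and 34.6. Cardiomyocyte markers were abundant (9 of 10 measured, summed CPM 22180 to 27660 with DMSO and 22140 to 23890 with blebbistatin). Fibroblast markers were too (8 of 8, 33470 to 38940 and 33520 to 38000), so these bulk libraries hold RNA of more than 1 cell type. Macrophage and leukocyte markers (6 of 7 tested) were 1.00 lower on the mean log2 scale in DMSO replicate 1 than in the other 5 libraries. The 3 measured red blood cell genes were 1.26 higher. Not every gene followed these means. On the scaled values DMSO replicate 1 was the lowest library for 5 of the 6 and the highest for 1, Csf1r (25 against 23.3 to 26.6 CPM). It was the highest for 2 of the 3 red blood cell genes, but not for Slc4a1 (0.26 against 0.13 to 0.34 CPM). Summed CPM of the 7 macrophage and leukocyte markers was 61.2 to 145.2 with DMSO and 124.8 to 144.2 with blebbistatin, and that of the 3 red blood cell genes 28.5 to 72.03 and 26.2 to 31.1. The same mean log2 difference of DMSO replicate 1 was -0.33 for cardiomyocyte and -0.059 for fibroblast markers. For endothelial markers it was 0.29, and for smooth muscle and pericyte markers 0.30. Of the 9 cardiomyocyte markers, DMSO replicate 1 was the lowest library for 5 and the highest for 4. Nppa was at 495 CPM there against 2785 to 5326 CPM elsewhere, and Myh7 at 19640 against 11150 to 13110 CPM. No measured marker was at 0 in every library. The part of other cell types in the results below was not tested. In bulk RNA fewer cells of a type and less RNA per cell cannot be told apart.

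Ier2, Ier5 and Ier5l encode nuclear proteins that share a conserved amino-terminal region and bind the phosphatase PP2A. Ier5 also acts on the heat shock factor Hsf1. Ier3, known as IEX-1, carries the same family name without that region and is known for its part in cell survival. The promoters of the 3 paralogs are shown because Ier5l differed in its levels from the other two. Each is the stretch of 250 bases before the gene's annotated start, read from RefSeq's GRCr8 assembly in the gene's direction. They lie at chr19:40399123-40399372 (plus strand), chr13:69822543-69822792 (minus strand) and chr3:34143458-34143707 (minus strand). Capitals mark a cyclic AMP response element (CRE, TGACGTCA), the CCAAT box (CCAAT or, on the other strand, ATTGG) and the TATA box TATAAA.
Ier2: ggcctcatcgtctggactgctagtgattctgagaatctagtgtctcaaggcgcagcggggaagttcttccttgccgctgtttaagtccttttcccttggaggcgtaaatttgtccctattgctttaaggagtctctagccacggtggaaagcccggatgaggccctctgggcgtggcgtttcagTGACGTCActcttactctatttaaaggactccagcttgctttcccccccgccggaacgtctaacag
Ier5: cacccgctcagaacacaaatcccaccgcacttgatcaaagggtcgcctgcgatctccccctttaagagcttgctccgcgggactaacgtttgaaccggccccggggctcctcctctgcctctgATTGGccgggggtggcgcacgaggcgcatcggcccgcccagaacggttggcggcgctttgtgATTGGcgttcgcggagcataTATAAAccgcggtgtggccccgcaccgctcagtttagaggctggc
Ier5l: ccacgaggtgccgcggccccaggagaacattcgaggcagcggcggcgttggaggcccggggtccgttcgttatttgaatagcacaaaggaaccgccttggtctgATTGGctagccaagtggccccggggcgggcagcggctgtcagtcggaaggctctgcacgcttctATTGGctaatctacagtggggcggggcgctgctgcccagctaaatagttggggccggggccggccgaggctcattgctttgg

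The Ier2 window held 1 CRE, 66 to 59 bases before the start, and no CCAAT box. The Ier5 and Ier5l windows each held 2 CCAAT boxes and no CRE. In Ier5 the CCAAT boxes began 127 and 65 bases before the start, and in Ier5l 146 and 82 bases before it. Ier5 held TATAAA, which the other two windows did not. Across all 33469 promoter windows of this length, searched on both strands, 1.59% held the CRE, 34% the CCAAT box and 12.9% TATAAA. The GC box GGGCGG, present in 30.5% of all windows, was found 1 time in Ier5 and 2 times in Ier5l, and 0 times in Ier2. Among the other members, Maff (1 CRE, 1 E-box CACGTG) and Mafk (1 E-box, no CRE) also had windows. The E-box was in 5.59% of all windows. In none of the 5 windows was there a CArG box (1.5% of all windows), the site of serum response factor, or the AP-1 site TGANTCA (6.34%). These letter matches describe the windows and are not evidence of binding.

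Ier5l was at 44.8, 42.8 and 33.5 CPM in DMSO replicates 1, 2 and 3 and at 53.3, 61.6 and 77.1 CPM in blebbistatin replicates 1, 2 and 3. Every treated library lay above every control library. The means were 40.4 ± 6.02 and 64 ± 12.1 CPM (SD, n = 3 each), with a log2 fold change of 0.62 ± 0.20 (SE), or 53.6% more on the scaled values. It was 0.74 without DMSO replicate 1 and ran from 0.47 to 0.75 when each library was left out in turn. Of the 9 members, Ier5l was the only one whose groups did not overlap, against 6.13% of all genes tested for both directions together and 3.24% for higher values. By limma over all 15204 genes, 0 of 9 members passed an adjusted p of 0.05 (0.0197% of all genes did), and 1 member, Ier5l, was under an unadjusted p of 0.05 (1.52% of all genes). Since this comparison chose the members, nothing is read from these counts.

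Its paralogs had another pattern. Ier2 was at 43.1, 74 and 87.1 CPM with DMSO and at 57.8, 52.8 and 69.4 CPM with blebbistatin. DMSO replicate 1 was the lowest of the 6 libraries and the other control libraries were the highest, so the groups overlapped. Ier5 was at 71.6, 130.4 and 143.4 CPM with DMSO and at 100.1, 77.1 and 104.3 CPM with blebbistatin, in the same arrangement. The log2 fold changes were -0.17 ± 0.23 for Ier2 and -0.28 ± 0.24 for Ier5. Without DMSO replicate 1 they were -0.42 and -0.55, and the treated libraries of both genes then lay below the remaining controls. Without DMSO replicate 3 they were 0.012 and -0.12, so the sign for Ier2 turned with 1 control library. Without DMSO replicate 2 they were -0.098 and -0.18, without blebbistatin replicate 2 they were -0.094 and -0.16, and for Ier2 alone the value without blebbistatin replicate 3 was -0.28.

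Ier3 followed Ier2 and Ier5. It was at 71.4, 126.3 and 141.3 CPM with DMSO and at 99, 87.5 and 103.4 CPM with blebbistatin. Again DMSO replicate 1 was the lowest library and the groups overlapped. Its log2 fold change was -0.21 ± 0.22, and it was -0.47 without DMSO replicate 1, -0.12 without DMSO replicate 2 and -0.043 without DMSO replicate 3.

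**Figure D1:**
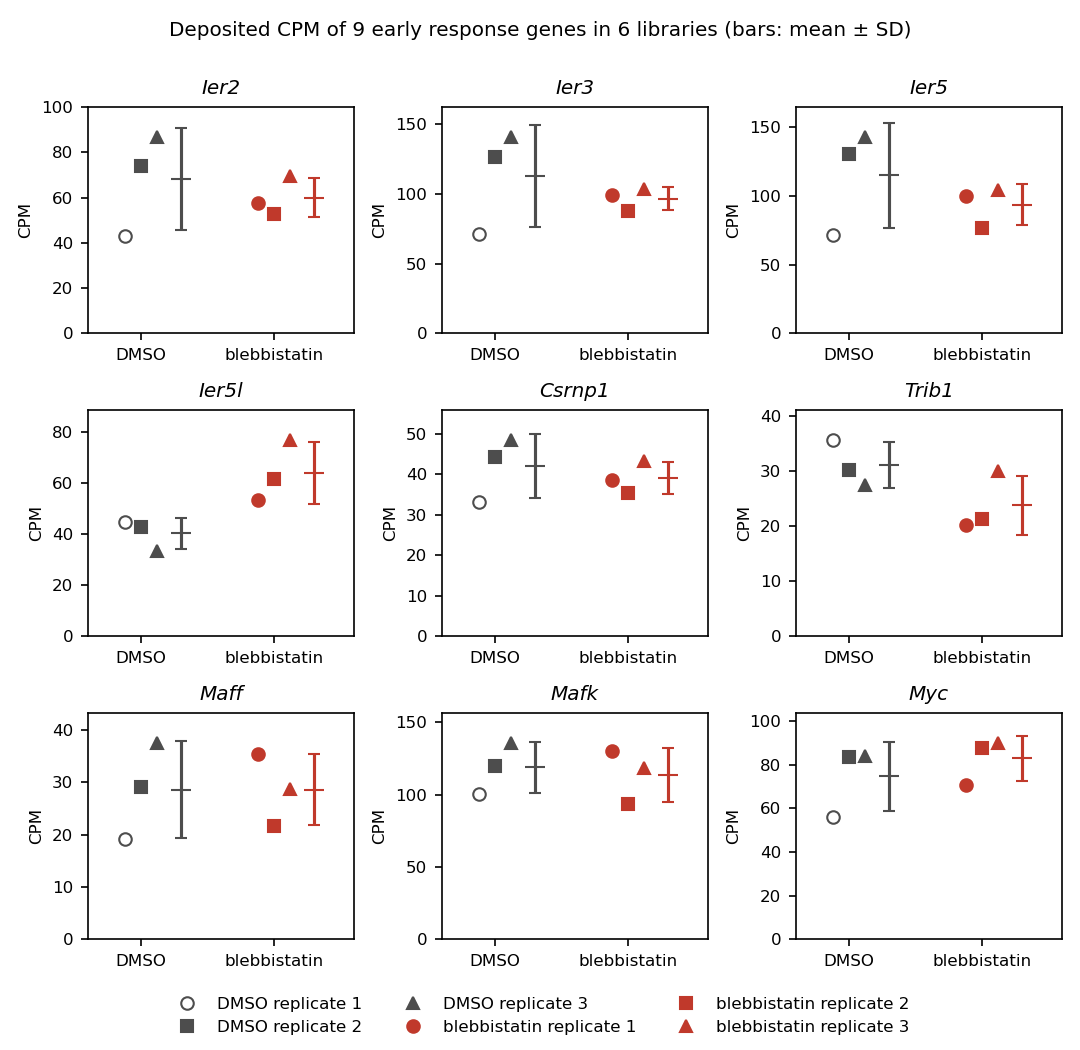
CPM as deposited (y axis, from 0) of each of the 9 genes in the 3 DMSO (grey) and 3 blebbistatin (red) libraries, with marker shapes for replicate numbers, an open circle for DMSO replicate 1, and bars for the mean ± SD. Ier5l lies between 33.5 and 44.8 CPM with DMSO and between 53.3 and 77.1 CPM with blebbistatin, while Ier2, Ier3 and Ier5 have DMSO replicate 1 as their lowest library.

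Within a library, the ratio of Ier5l to its paralogs cancels the library's scaling. The log2 ratio of Ier5l to Ier2 was 0.054, -0.79 and -1.38 in DMSO replicates 1 to 3 and -0.12, 0.22 and 0.15 in blebbistatin replicates 1 to 3. That to Ier5 was -0.67, -1.61 and -2.10 in the controls and -0.91, -0.32 and -0.44 in the treated libraries. For both ratios DMSO replicate 1 lay within the range of the treated libraries, and the other control libraries lay below that range. Against the mean of Ier2 and Ier5, Ier5l averaged -1.08 ± 0.72 with DMSO and -0.24 ± 0.24 with blebbistatin (SD, n = 3 each). The difference of 0.85 between the treatments, 1.80-fold, was 1.23 without DMSO replicate 1 and 0.52 without DMSO replicate 3. It was above 0 with each of the 6 libraries left out.

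The ratios among Ier2, Ier3 and Ier5 varied far less. With DMSO the log2 ratio of Ier2 to Ier3 was -0.73 ± 0.037, and with blebbistatin it was -0.69 ± 0.11, and that of Ier2 to Ier5 was -0.75 ± 0.054 and -0.64 ± 0.13. By comparison, Ier2, Ier3 and Ier5 each spanned 0.84 to 0.87 on the log2 scale over the 6 libraries. The 3 genes kept nearly the same proportions in every library, DMSO replicate 1 included.

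**Figure D2:**
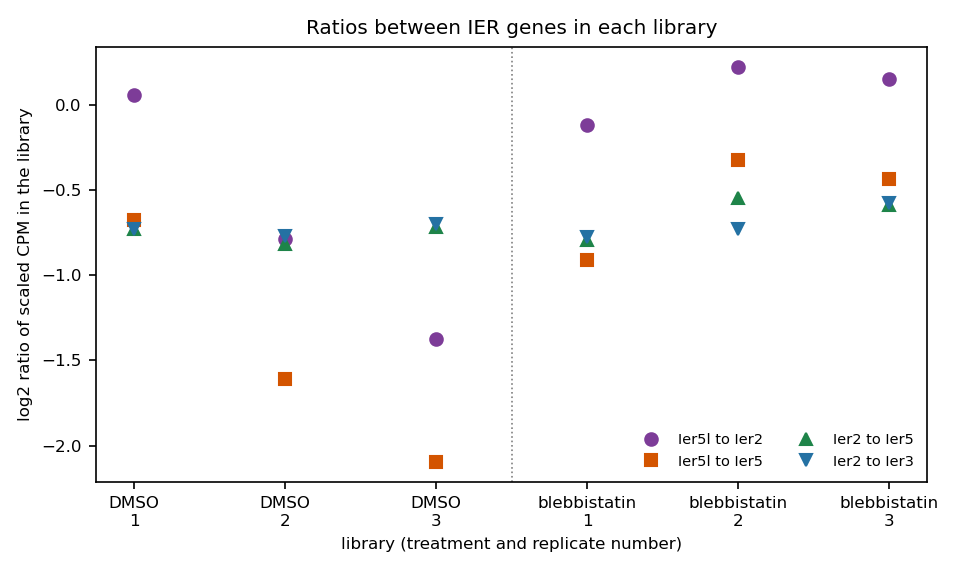
Log2 ratio of scaled CPM (y axis) between pairs of IER genes in each library (x axis), with a dotted line between the treatments. The ratios of Ier2 to Ier3 and of Ier2 to Ier5 stay between -0.82 and -0.55, while Ier5l to Ier5 runs from -2.10 to -0.32.

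The likeness of patterns was measured as the root mean square difference over the 6 libraries between log2 values centred on each gene's mean, among 13064 other genes with a mean of at least 1 CPM. The gene nearest to Ier2 was Ier3 (0.067), and Ier5 ranked 8 (0.10) and Csrnp1 40 (0.15). At ranks 2 to 5 stood Pim3, a serine/threonine kinase gene (0.089), Lime1, an adaptor gene of lymphocyte signalling (0.092), F3, the tissue factor gene of the clotting cascade (0.096), and N6amt1, a methyltransferase gene (0.096). From Ier2, Ier5l stood at rank 11647 (0.58) and Trib1 at 9138 (0.45). Nearest to Ier5l were AABR07040782.1, which has no symbol (0.16), Irf2bpl (0.17), Gas1, a growth arrest gene at the cell surface (0.18), Rab43, a small GTPase gene (0.18), and Rtn4rl1 (0.18). From Ier5l, Myc was the nearest member (rank 3203, 0.39), and Ier2, Ier3 and Ier5 were at ranks 10883 to 11625. Irf2bpl was at 97.1, 95.9 and 91.8 CPM with DMSO and 107.2, 121.4 and 148.5 CPM with blebbistatin, an order of libraries close to that of Ier5l. All these genes share the same 6 libraries, so likeness includes what set DMSO replicate 1 apart.

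Csrnp1 encodes a cysteine- and serine-rich nuclear protein induced by axin. It was at 33.2, 44.3 and 48.6 CPM with DMSO and at 38.5, 35.5 and 43.1 CPM with blebbistatin. The groups overlapped through DMSO replicate 1. Its log2 fold change was -0.13 ± 0.15, and it was -0.25 without DMSO replicate 1, -0.21 without blebbistatin replicate 3, -0.076 without blebbistatin replicate 2 and -0.043 without DMSO replicate 3. The paralog Csrnp2 was steadier, at 24.6, 25.5 and 26.5 CPM with DMSO and 22.9, 25.2 and 21.9 CPM with blebbistatin (log2 fold change -0.17 ± 0.13).

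Trib1 encodes a pseudokinase that brings the ubiquitin ligase Cop1 to C/EBP transcription factors. It was at 35.8, 30.3 and 27.5 CPM with DMSO and at 20.3, 21.3 and 30 CPM with blebbistatin. Here DMSO replicate 1 was the highest library, the reverse of its place for Ier2, and blebbistatin replicate 3 lay among the controls. The log2 fold change was -0.44 ± 0.21, the furthest below 0 of the 9 with all 6 libraries. Without DMSO replicate 1 it was -0.29, and Ier2, Ier3 and Ier5 lay further below 0 (-0.42, -0.47 and -0.55). The Trib1 value was -0.61 without blebbistatin replicate 3, and negative with each library left out. The other Tribbles genes had log2 fold changes of -0.048 ± 0.12 (Trib2) and 0.20 ± 0.18 (Trib3). Cop1 was at -0.14 ± 0.21. Cebpb, one of the C/EBP genes, was at 50.7, 79.3 and 70.1 CPM with DMSO and 83.4, 97.6 and 124.6 CPM with blebbistatin, with no overlap (0.58 ± 0.20 as log2 fold change, 0.991 as adjusted p in limma). Of all genes tested, 3.24% lay wholly above the controls. Cebpa, another C/EBP gene, was at 0.24 ± 0.18, and its groups overlapped.

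Maff and Mafk encode small MAF proteins, basic leucine zipper factors that lack an activation domain and pair with NRF2 and BACH proteins. Maff was at 19.2, 29 and 37.6 CPM with DMSO and at 35.3, 21.7 and 28.6 CPM with blebbistatin. Mafk was at 100.7, 119.4 and 135.9 CPM with DMSO and at 129.9, 93.2 and 118 CPM with blebbistatin. The treated libraries of Maff lay within the range of the controls, and those of Mafk did so but for blebbistatin replicate 2. That library lay below it (log2 scaled CPM of 6.55, against 6.76 in DMSO replicate 1). In both genes blebbistatin replicate 1 was the highest and replicate 2 the lowest of the treated. The log2 fold changes were -0.015 ± 0.25 and -0.10 ± 0.16. The sign for Maff turned with library-size scaling (0.024) and without DMSO replicate 2, DMSO replicate 3 or blebbistatin replicate 2 (0.003, 0.18 and 0.16), and it was -0.23 without DMSO replicate 1, -0.17 without blebbistatin replicate 1 and -0.031 without blebbistatin replicate 3. That for Mafk turned without blebbistatin replicate 2 (0.021), and it was -0.17 without DMSO replicate 1, -0.026 without DMSO replicate 3 and -0.20 without blebbistatin replicate 1. Mafk overlaps a long non-coding RNA gene in RefSeq, and the reads of both cannot be told apart here. The third small MAF gene, Mafg, was at 34.2, 39.7 and 41.1 CPM with DMSO and 37.7, 31.3 and 33.8 CPM with blebbistatin (log2 fold change -0.20 ± 0.12). Its groups overlapped in these CPM, but on the scaled values every treated library lay below the controls, as for 2.89% of all genes tested.

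Myc encodes a transcription factor that pairs with Max and drives growth genes. It was at 56.2, 83.8 and 84 CPM with DMSO and at 71, 87.6 and 90.2 CPM with blebbistatin. DMSO replicate 1 was again the lowest library. The log2 fold change was 0.13 ± 0.18, and it was -0.020 without DMSO replicate 1, 0.25 without blebbistatin replicate 1, 0.21 without DMSO replicate 2 and 0.20 without DMSO replicate 3, 0.073 without blebbistatin replicate 2 and 0.064 without blebbistatin replicate 3. Max was at 35.8, 39.9 and 40.2 CPM with DMSO and 44.4, 37.4 and 40.7 CPM with blebbistatin (0.039 ± 0.12).

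**Figure D3:**
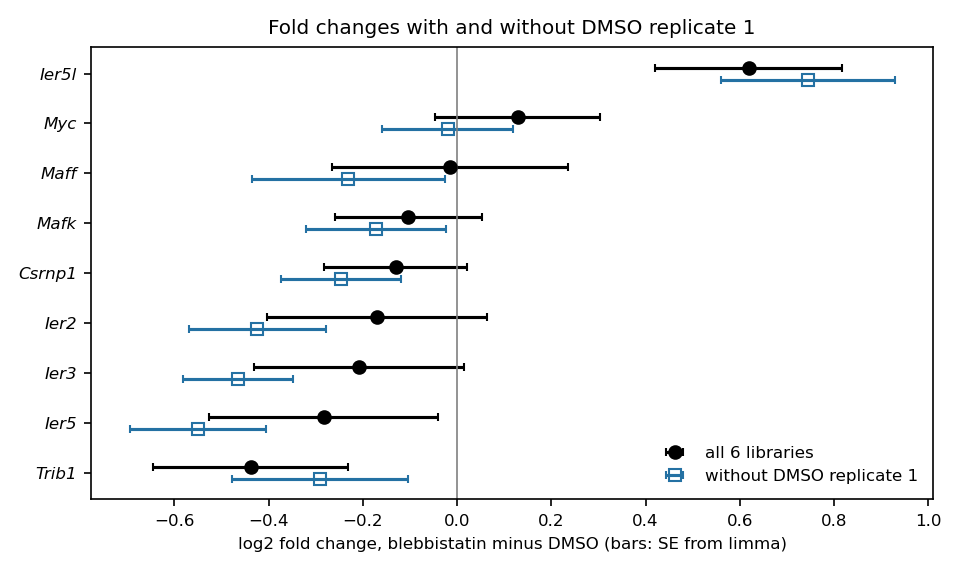
Log2 fold change, blebbistatin minus DMSO (x axis, bars are limma's SE), of the 9 genes, with all 6 libraries (black circles) and without DMSO replicate 1 (open blue squares). Ier5l stands at 0.62 and 0.74, and Ier2, Ier3 and Ier5 move from between -0.28 and -0.17 to between -0.55 and -0.42 when that library is left out.

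Of the members, 7 had a negative log2 fold change and 2, Ier5l and Myc, a positive one, where 49.3% of all genes were negative. The median over the 9 was -0.13, against 0.004 over all genes tested. Within-group SDs of the members ran from 0.18 (Csrnp1) to 0.37 (Maff) on the log2 scale, with a median of 0.29 against 0.28 for all genes tested. Each of these SDs is larger than the counting error. DMSO replicate 1 was the lowest of the 6 libraries on the scaled values for 5 of the 9 (Ier2, Ier3, Ier5, Maff and Myc), as for 35.3% of all genes, and the highest for 1 (Trib1), as for 33.7%. Without it, 4 members (Ier2, Ier3, Ier5 and Csrnp1) had every treated library below the controls, against 6.04% of all genes, and 1 (Ier5l) above them, against 6.07%. Ier5l, separated with all 6 libraries, stayed so with each left out, which was fixed in advance because the scaling factors were kept. Also separated were Trib1, lower, without DMSO replicate 3 or without blebbistatin replicate 3, and Myc, higher, without blebbistatin replicate 1. The shares of all genes separated without these libraries are not given here, so nothing is read from these cases. Without DMSO replicate 1, 0 of 9 passed limma's adjusted p of 0.05 (0.0395% of all genes did), and 4 were under an unadjusted p of 0.05 (1.59%).

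**Figure D4:**
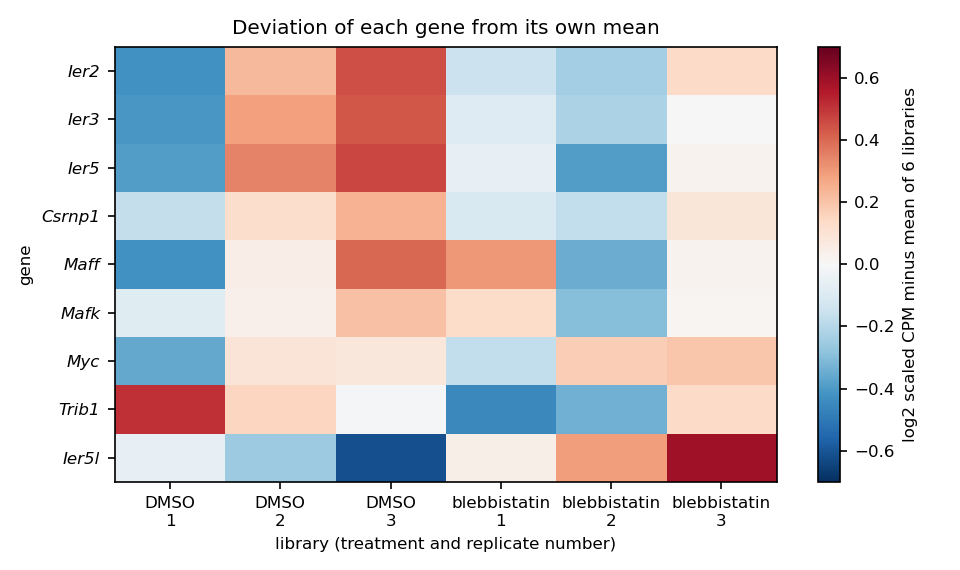
Log2 scaled CPM of each gene (rows) in each library (columns) minus the gene's mean over the 6 libraries, blue below and red above it. Ier2, Ier3 and Ier5 share 1 colour pattern, from -0.42 to -0.39 in DMSO replicate 1 and 0.43 to 0.47 in DMSO replicate 3, and Ier5l has another, with -0.060 in DMSO replicate 1, -0.62 in DMSO replicate 3 and 0.59 in blebbistatin replicate 3.

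The low level in DMSO replicate 1 was not shared by Fos, an AP-1 subunit and the early gene with the lowest p. Ier2, Ier3 and Ier5 stood in that library at 0.54, 0.53 and 0.52 times the mean of the other control libraries, and Csrnp1 at 0.71 times. Fos stood at 0.99 times. Of 49 early genes tested in a fixed list, DMSO replicate 1 was the lowest library for 16 and the highest for 13. Over all genes tested it was the lowest for 35.3% and the highest for 33.7%. Among the 16, picked after their values were seen, were Nr4a1, an orphan nuclear receptor gene (7.69 CPM, against 18 and 19.6 CPM in the other controls), and Atf3, a stress-induced transcription factor gene (18.7 against 32.9 and 41.5 CPM). Among the 13, picked in the same way, was Klf6 (102.5 against 81.6 and 68 CPM). Fos was at 26.9, 26.6 and 27.7 CPM with DMSO and at 10.3, 11.6 and 11.1 CPM with blebbistatin. For the 49 tested early genes (50 in the list), limma called 0 over all genes, with 17 lower and 1 higher at an unadjusted p under 0.05 (0.776% and 0.743% of all genes). Their median log2 fold change was -0.26, and 19 lay wholly below and 2 wholly above the controls, where 2.89% and 3.24% of all genes did. Without DMSO replicate 1 these counts were 29 and 2, where 6.04% and 6.07% of all genes did. Limma then called 1 of the 49 (0.0395% of all genes). With all 6 libraries, the log2 fold change was -1.33 ± 0.14 for Fos, with an adjusted p of 0.0593 in limma. Egr2 and Klf6, zinc finger factor genes, were at -1.17 ± 0.17 (0.334) and -1.12 ± 0.19 (0.765), and Plk2, a polo-like kinase gene, at -0.70 ± 0.12 (0.765). The list and the members share the same 3 control libraries.

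Known partners and paralogs of the members were 39 tested genes of 43 fixed symbols, with Cop1 also listed as Rfwd2. Limma called 0 of them over all genes, with 0 lower and 1 higher (Cebpb) at an unadjusted p under 0.05. Their median log2 fold change was -0.025 (21 negative, 18 positive). After Cebpb the lowest p values were those of Mafa, a large MAF gene (0.92 ± 0.55, at 0.27 to 1.07 CPM with DMSO), Bach2, a partner of small MAFs (-0.35 ± 0.21), and Mafg. The PP2A regulatory subunit gene Ppp2r2a was at 0.055 ± 0.13 and Hsf1 at 0.16 ± 0.14. For 18 tested genes of factors that drive early transcription limma called 0, with 0 at an unadjusted p under 0.05 and a median of -0.090 (11 negative, 7 positive). The 21 symbols fixed for them include older and newer names of the same genes. Srf, the serum response factor gene, was at 160.6, 173 and 198 CPM with DMSO and 156.9, 150.6 and 174.9 CPM with blebbistatin (-0.18 ± 0.12). Its partner gene Elk4 split within the treated group, at 106, 25.1 and 141.9 CPM against 43.5, 29.8 and 25.4 CPM with DMSO (1.13 ± 0.62). Crtc1, a CREB coactivator gene, and Ets1 were at -0.32 ± 0.20 and -0.18 ± 0.13.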

How the data were processed

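RNA was sequenced from 6 libraries of rat cardiomyocytes, 3 with DMSO and 3 with blebbistatin. The authors deposited 1 table of CPM values, under a name that points to raw counts, and all columns add up to the same sum. Per the submitters' processing notes, Trim Galore, edgeR 3.20.9, HISAT2 2.1.0, BWA, StringTie 1.3.4, MACS2 2.1.0 and build rn6 were used for the RNA and chromatin samples together. Which tool made the table, which annotation it used and how strand was treated are not given in the sources used here. In each library 99.1 to 99.2% of values above 0 were whole multiples, within 0.02, of a step taken as 1 read, and no count test was run.

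CPM values were divided by TMM factors (0.928 to 1.03, unweighted, trims 0.3 and 0.05). A gene was kept if 3 or more libraries reached 0.162 CPM, which is 10 reads at median depth. The log2(value + 0.1) was fitted with limma 3.58.1 in R 4.3.3 (trend, robust, no block, two-sided, Benjamini-Hochberg over all genes). The added 0.1 understates changes of low genes. The steps were tested on simulated data. Values of single libraries and means ± SD are CPM as deposited. Members and lists were chosen with earlier results of these data known. Genes named outside the members are those with the lowest p of each list (up to 4) and the 5 nearest by pattern to Ier2 and Ier5l. Chosen after their values were seen were direct paralogs and partners, and the early genes Nr4a1 and Atf3. Promoter windows came from RefSeq GRCr8, which matched 9 of 9 members by symbol and held a window for 5. No library repeats another: chi-square per degree of freedom was 34.4 or more for every pair. Alternatives covered scaling, filter, pseudocount, robust fitting, the replicate block and leaving out each library.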

Additional observations from a re-analysis of the deposited data

How the results depend on the processing

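Leaving out each library in turn kept the same genes and scaling factors. It gave 3 to 6 genes called over all genes (6 without DMSO replicate 1 and 6 without DMSO replicate 3, against 3), 0 members called each time, and 1 to 5 members with separated groups (5 without DMSO replicate 1, and 2 when DMSO replicate 3 or either of blebbistatin replicates 1 and 3 was left out). Of all genes, 6.04% were separated lower and 6.07% higher without DMSO replicate 1. These shares are not given here for the other libraries left out. Without DMSO replicate 3, 926 genes were under an unadjusted p of 0.05 in limma, against 231 with all 6 libraries. The Ier5l difference from its paralogs ran from 0.519 to 1.23. Log2 fold changes whose sign turned ran from -0.424 to 0.012 for Ier2, -0.231 to 0.183 for Maff, -0.195 to 0.0209 for Mafk and -0.0198 to 0.248 for Myc. Maff was also at 0.0236 with library-size scaling, which moved the median of all genes to 0.042. Of 135 values of single members under the alternatives, 128 kept their sign and moved by less than the spread between replicates, and 7 changed sign. With scaling, filter, pseudocount or robust fitting changed, 2 or 3 genes were called over all genes and 0 members. With the replicate block 2 genes and 0 members were called, and 0 members were under an unadjusted p of 0.05 in limma. Same-numbered libraries correlated at -0.29, 0.054 and -0.092 in their deviations from group means, so the numbers were not taken as pairs. The cause of these shifts was not tested. The counting error of the members was at most 2.94% in any library.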
